A study of Homo sapiens with 8 samples.

Results

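The comparison described here set silencing of the hMENA11a isoform against silencing of hMENA as a whole, in the H1650 line, which comes from a human non-small cell lung cancer. Its members were the 4 ATAC-seq libraries of the siMena11a and siMena groups, 2 replicates each, out of 8 libraries in 4 groups. Cells of the siMena11a group were transfected with a mixture of siRNAs matching exon 11a, and cells of the siMena group with a pool of siRNAs against ENAH, the gene that encodes every hMENA isoform. Both groups received siRNA at 20 nmol/L with the same lipid reagent. The siRNAs themselves differ in sequence and source, so effects of the siRNAs beyond their target cannot be told apart from those of the target. The other groups, used here only for reference, were cells transfected with a non-targeting pool (siControl) and untreated cells. The labels do not say whether replicates were separate cultures, so the spread between them may be technical. A peak list holds no measure of mRNA or protein, so the depth of either knockdown was not checked here.

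hMENA belongs to the Ena/VASP family, whose members bind the growing ends of actin filaments and keep them elongating, as in filopodia and at the leading edge of moving cells. The 11a exon is spliced in by the epithelial splicing programme, and hMENA11a marks epithelial tumour cells, whereas other isoforms are tied to a mesenchymal and invasive state. A pool against total hMENA therefore targets hMENA11a too, and the comparison asks how chromatin differs when the epithelial isoform alone is targeted rather than all of them. ATAC-seq marks open chromatin, such as active promoters and enhancers, by the insertion of sequencing adapters with a transposase.

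The distinct peak intervals of the 4 lists were merged where they overlapped or touched, which gave 36328 regions, against 46665 over all 8 lists. A region was listed in a library if a peak of that library overlapped it. Coordinates are hg19, and genes at the regions were not analysed here. The siMena11a lists held 35472 (replicate 1) and 2832 peaks (replicate 2), and the siMena lists 14678 and 1020, so the siMena11a list was 2.42 times as long in replicate 1 and 2.78 times in replicate 2. The genome-wide background, in tags averaged over positions, scales with sequencing depth and was 0.881 and 2.54 tags with siMena11a and 0.725 and 2.88 tags with siMena. In replicate 2 the siMena library thus had the shorter list and the higher background. Sequences outside chromosomes 1 to 22 and X are called contigs here, and chromosome Y is counted with them. They held 0.431% and 4.34% of the siMena11a peaks and 0.634% and 12.8% of the siMena peaks.

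Most regions belonged to replicate 1. Of the 36328 regions, 21581 (59.4%) were listed in siMena11a replicate 1 alone and 11297 (31.1%) in the replicate 1 lists of both groups and no other. A further 1690 (4.65%) were listed in every knockdown library but siMena replicate 2, and 596 (1.64%) in all 4 libraries. Regions that the 2 siMena11a libraries listed and the 2 siMena libraries did not numbered 115, or 0.317% of all regions. The opposite pattern was found at 4 regions, or 0.011%.

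Within a replicate number the listing was almost one-sided. In replicate 1, 21754 of 35931 regions (60.5%) were listed with siMena11a only and 541 (1.51%) with siMena only. In replicate 2, 1954 of 2957 regions (66.1%) were listed with siMena11a only and 185 (6.26%) with siMena only. In replicate 1, siMena listed 38.5% of the siMena11a regions (95% exact Clopper-Pearson interval 38.0 to 39.0), and siMena11a listed 96.2% of the siMena regions (95.9 to 96.5). The matching shares in replicate 2 were 29.5% (27.8 to 31.3) and 81.6% (79.0 to 83.9). The shorter siMena list was therefore largely contained in the siMena11a list of the same number. These intervals cover counting error over regions only, not the spread between cultures.

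Listing followed peak strength. Each list was divided into 10 equal parts by its −log10 q, the peak caller's significance adjusted for multiple tests. Of the weakest siMena11a peaks in replicate 1, 5.61% were also listed with siMena, and the share climbed through every step to 98.0% of the strongest. In replicate 2 the share was 10.6% in the weakest and 85.6% in the strongest part, with small dips from the first to the second part and from the fourth to the fifth. In the other direction, 91.0% of the weakest and 100% of the strongest siMena peaks of replicate 1 were listed with siMena11a. In replicate 2 these shares were 58.8% and 100%. Of the 284 strongest siMena11a peaks of replicate 2, 243 thus had a siMena counterpart, and the strongest siMena peaks of both replicates all had a siMena11a one. Most siMena11a peaks without a siMena counterpart lay in the weaker part of the list.

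**Figure D1:**
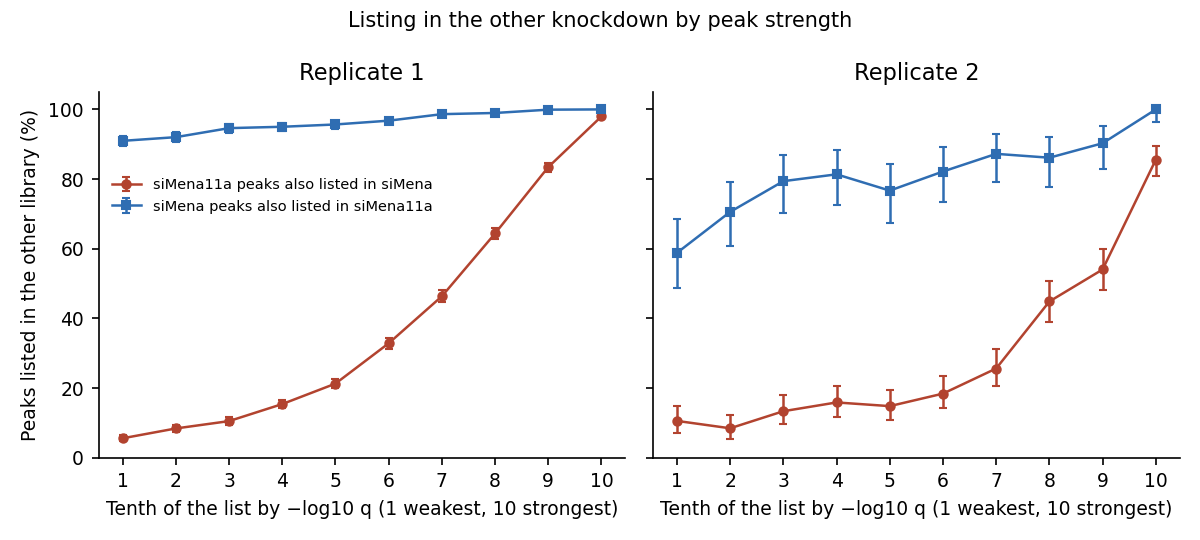
Share of peaks (%) listed in the other knockdown library of the same replicate number, in 10 equal parts of the list from the weakest to the strongest −log10 q, with 95% exact Clopper-Pearson intervals as bars. The siMena11a peaks start at 5.61% and 10.6% and end at 98.0% and 85.6%, and the siMena peaks stay at 58.8% or above.

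The 596 regions listed in all 4 libraries allowed the same places to be compared. Of these, 543 lay on chromosomes 1 to 22 and X and 53 on contigs, counting 1 on chromosome Y. Fold is the tag pileup at the summit over the local background, with 1 added to both. The median fold over the shared regions was 10.3 in siMena11a replicate 1, 5.56 in siMena11a replicate 2, 8.75 in siMena replicate 1 and 4.55 in siMena replicate 2. Both siMena11a values were above the siMena value of the same number, but the groups overlapped, since siMena replicate 1 lay above siMena11a replicate 2. On the log2 scale the library medians averaged 2.92 ± 0.63 with siMena11a and 2.66 ± 0.67 with siMena (SD, n = 2). The difference of 0.26 was smaller than the spread between replicates (two-sided exact permutation p = 0.667, where 0.33 is the smallest p that 2 libraries against 2 allow). The difference of library medians was 0.23 within replicate 1 alone and 0.29 within replicate 2 alone. With 1 library left out, shared regions were found anew and the replicate numbers of the groups no longer matched. The difference was then −0.18 without siMena11a replicate 1 and −0.19 without siMena replicate 2. It was 0.71 without siMena11a replicate 2 or without siMena replicate 1.

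Region by region, the fold was higher with siMena11a at 460 of the 596 shared regions in replicate 1 and at 487 in replicate 2. The median log2 ratio of siMena11a over siMena was 0.17 in replicate 1 and 0.22 in replicate 2. The added 1 lowers the fold more where backgrounds are low. In replicate 1, local background had a median of 4.95 tags with siMena11a and 2.82 with siMena, and without the added 1 the median log2 ratio was 0.04, with 334 of 596 regions higher. In replicate 2 the backgrounds were close, at 4.34 and 4.11 tags, and the ratio was 0.23 without the added 1, with 489 regions higher. The higher enrichment with siMena11a was thus nearly gone in replicate 1 once the added 1 was left out, and kept its size in replicate 2. On the 53 contig regions the median log2 fold ratio was −0.04 in replicate 1 and 0.04 in replicate 2.

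**Figure D2:**
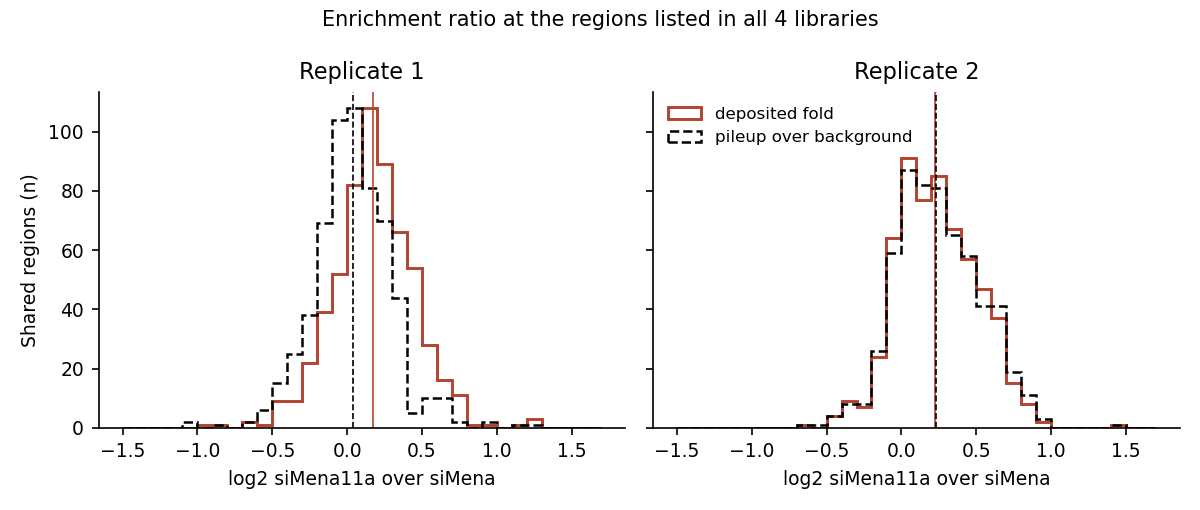
Number of the 596 shared regions by log2 ratio of siMena11a over siMena, for the deposited fold (solid) and for recovered pileup over local background (dashed), in each replicate, with thin vertical lines at the medians and values beyond the axis placed in the end bins. In replicate 1 the medians are 0.17 (solid) and 0.04 (dashed), and in replicate 2 they are 0.22 and 0.23.

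The shared peaks were also wider with siMena11a. Their median width was 830 and 433 bp in siMena11a replicates 1 and 2, against 619 and 303 bp with siMena. In replicate 1, 509 of 596 regions had the wider peak with siMena11a, and in replicate 2, 481 did. The caller placed more than 1 summit in 271 and 130 of the siMena11a peaks and in 220 and 72 of the siMena peaks. Width and summit number rest on the same tags as the fold, so they are not separate evidence. Summit position differed little: the median distance between the strongest summits was 27 bp between the replicate 1 libraries, 35.5 bp between the replicate 2 libraries, 32 bp between the siMena11a replicates and 43 bp between the siMena replicates. Between 75.8% and 82.2% of summits lay within 100 bp of each other in these pairs and in the pairs that shared neither group nor number.

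The place of the shared regions within each whole list differed with the length of the list. Their median percentile of −log10 q was 97.6 among all peaks of siMena11a replicate 1, 82.9 in siMena11a replicate 2, 95.5 in siMena replicate 1 and 52.2 in siMena replicate 2. The shared regions were therefore ranked afresh among themselves, from 0 (weakest) to 100, in each library. Across the 596 regions these ranks followed the replicate number, with a Spearman rho of 0.78 between the replicate 1 libraries and 0.68 between the replicate 2 libraries. Between replicates of a group the rho was 0.03 for siMena11a and 0.02 for siMena, and on chromosomes 1 to 22 and X alone it was 0.14 and 0.12. Regions share their libraries, so these values are descriptions.

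The contig regions changed place between replicate numbers. The 53 contig regions had median ranks of 11.8 and 16.0 in siMena11a and siMena replicate 1, but 82.6 and 86.3 in siMena11a and siMena replicate 2. Their median local background was 8.12 and 7.54 tags in replicate 1 and 23 and 25.1 tags in replicate 2.

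A region was called if its rank was at least 10 percentile points higher with the same knockdown in both replicates. With siMena11a 72 of 596 regions (12.1%) were called, and with siMena 35 (5.87%). Taken singly, replicates 1 and 2 had 161 and 172 regions at least 10 points higher with siMena11a, and 142 and 172 with siMena. With percentiles within the whole lists in place of these ranks the counts were 48 and 3. With no replicate block, where both libraries of a group had to rank 10 points above both of the other, they were 23 and 18. Another 67 regions moved by at least 10 points in opposite directions in the 2 replicates, 40 of them higher with siMena11a in replicate 1. The remaining 422 moved by less than 10 points in at least 1 replicate. The sign of the rank difference was the same in both replicates at 315 regions (52.9%), and the differences of the 2 replicates had a Pearson r of 0.09 and a Spearman rho of 0.11 across regions. The rank changes were thus mostly not shared between replicates.

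**Figure D3:**
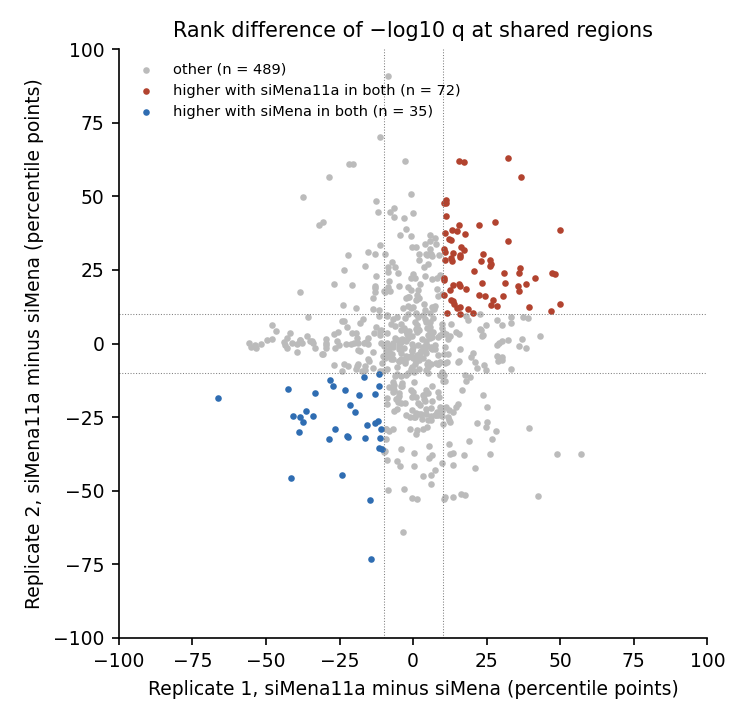
Rank difference of −log10 q, siMena11a minus siMena, in replicate 1 (horizontal) and replicate 2 (vertical), in percentile points, with 1 point for each of the 596 shared regions and dotted lines at 10 points either side of 0. The 72 regions higher with siMena11a in both replicates and the 35 higher with siMena lie beside 67 that moved in opposite directions.

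At the 72 regions called for siMena11a, the median fold was 11.3 with siMena11a and 8.48 with siMena in replicate 1, and 5.91 and 4.11 in replicate 2. Fold was higher with siMena11a at all 72 in both replicates, and the peak was wider at 70 and 67 of them. Fold and width come from the same tags as the rank that chose them. At the 35 regions called for siMena the folds were nearly level, at 9.72 and 10.0 in replicate 1 and 5.36 and 5.20 in replicate 2. Fold was higher with siMena11a at 17 of the 35 in replicate 1 and at 21 in replicate 2. A higher rank with siMena was therefore often not a higher fold. None of the 72 regions and 4 of the 35 lay on contigs.

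The region on chromosome 15 from 99791186 to 99792048 had the largest rise in rank with siMena11a in the replicate where it rose less. It ranked at 70.2 and 48.9 in siMena11a replicates 1 and 2 and at 20.4 and 10.5 in siMena. Its fold was 11.9 and 6.57 with siMena11a and 6.94 and 4.01 with siMena, so both siMena11a values exceeded the siMena value of their number, while the groups overlapped. The siControl libraries had folds of 11.3 and 5.81 there, and the untreated libraries 14.6 and 9.38, so the siMena library had the lowest fold of each replicate number.

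The region on chromosome 12 from 39836654 to 39837580 ranked at 78.6 and 78.8 with siMena11a and at 42.0 and 22.1 with siMena, with folds of 11.6 and 7.71 against 8.76 and 4.26. Chromosome 7 from 16792980 to 16793930 had ranks of 72.6 and 38.0 against 40.2 and 3.27. Chromosome 3 from 66551016 to 66551924 had ranks of 85.7 and 65.7 against 53.4 and 2.60. In these 3 regions the drop to siMena was larger in replicate 2 or close to equal in both replicates. On chromosome 14 from 53018856 to 53020063 ranks were 86.2 and 72.4 against 58.5 and 31.2, and on chromosome 12 from 74436991 to 74437559 they were 55.8 and 81.0 against 29.5 and 53.8. All 6 regions were listed in all 8 libraries, and in each the fold of siMena replicate 2 was the lowest of the 8. In the order given, from chromosome 15 on, their −log10 q in siMena replicate 2 was 3.43, 4.40, 2.71, 2.63, 4.92 and 7.19. With peaks limited to a −log10 q of at least 5, 1 of the 6 was called.

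In the other direction, the region on chromosome 11 from 62608210 to 62609356 ranked at 27.8 and 42.0 with siMena11a and at 69.4 and 87.8 with siMena. Its fold was 6.89 and 5.05 with siMena11a and 7.50 and 7.03 with siMena. It was the only one of the 12 named shared regions where both siMena folds exceeded both siMena11a folds. The siControl folds were 7.23 and 6.03 and the untreated folds 9.67 and 5.51, so siMena replicate 2 had the highest fold of the replicate 2 libraries there.

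The region on chromosome 11 from 95522529 to 95523862 had folds of 7.64 and 5.09 with siMena11a and 9.30 and 5.49 with siMena, and ranks of 27.3 and 37.3 against 66.2 and 67.4. Chromosome 4 from 174255395 to 174256584 had folds of 8.61 and 5.14 against 8.86 and 5.40, and ranks of 37.8 and 26.7 against 66.4 and 59.1. Its siControl folds of 11.4 and 8.21 were above both knockdown values of the same replicate number. On chromosome 2 from 167270937 to 167271226, the narrowest of these regions, the fold was 15.0 and 7.34 against 13.6 and 8.51. The last 2 were chromosome 8 from 133787101 to 133788262, with folds of 7.96 and 4.03 against 9.60 and 4.21, and chromosome 13 from 98085101 to 98085859, with 8.13 and 5.56 against 9.69 and 5.16. On chromosomes 2 and 13 the fold went opposite ways in the 2 replicates.

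The siControl library of the same number gave a reference rank. Over the shared regions with a siControl peak, siControl ranked nearer to siMena11a than to siMena at 341 of 588 in replicate 1 and at 347 of 589 in replicate 2. At the regions called for siMena11a it was nearer to siMena11a at 39 of 72 and 39 of 71, and at those called for siMena at 25 of 35 and 21 of 33. These shares lay close to that over all shared regions, except for the siMena calls of replicate 1. Untreated cells ranked nearer to siMena11a at 54 and 60 of the 72 regions, against 350 of 555 and 338 of 583 overall. At the 35 regions called for siMena they were nearer to siMena11a at 23 and 21, close to the share over all shared regions. The siMena11a and siMena ranks in these comparisons also chose the called regions, so the counts are descriptions.

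The 115 regions listed in both siMena11a libraries and neither siMena library had lower folds than the shared regions. Their median fold was 7.46 in siMena11a replicate 1 and 4.36 in replicate 2, below the 10.3 and 5.56 of the shared regions, and their median list percentile was 64.0 and 29.4. Only 18 lay in the upper 50 percent of both siMena11a lists. Their median width was 461 bp, and 4 lay on contigs. Chromosome 3 held 17 of them (14.8%), against 8.16% of the siMena11a replicate 2 peaks, chromosome 5 held 14 (12.2%, where 255 of the 2832 siMena11a replicate 2 peaks lay), chromosome 7 held 12 (10.4% against 8.97%) and chromosome 2 held 11 (9.57% against 10.3%).

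Most of these regions were also open without any hMENA siRNA. Untreated replicates 1 and 2 listed 104 and 103 of the 115, and siControl replicates 1 and 2 listed 97 and 68. These were 90.43, 89.57, 84.35 and 59.13%, against 93.1, 97.8, 98.7 and 98.8% of the 596 shared regions. For the 1690 regions that, among the 4 knockdown libraries, only siMena replicate 2 lacked, the shares were 99.9, 99.5, 99.9 and 82.9%. For the 21581 regions that, among these 4, siMena11a replicate 1 alone listed, they were 64.4, 32.0, 49.1 and 2.27%. All 4 reference libraries listed 59 (51.3%), and 1 region was listed in none of them. Both siControl libraries listed 61 and neither listed 11. The 115 regions were thus mostly not particular to siMena11a. Their absence from the siMena lists was fixed by how they were chosen. Every reference list was also longer than the siMena11a replicate 2 list, with 5231 to 34782 peaks against 2832.

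A missing peak is not a measured level, so the lowest folds that siMena listed were set beside these regions. At genome-wide background, the lowest fold that siMena listed was 4.06 in replicate 1 and 3.61 in replicate 2. The siMena11a fold was below this at 5 of the 115 regions in replicate 1 and at 22 in replicate 2. Where local background is higher a lower fold can be listed, and 28 and 39 of the 596 shared regions also lay below these values in siMena11a. With siMena11a folds lowered by the median log2 ratio of the shared regions, 0.17 and 0.22, 9 and 50 of the 115 lay below. Of the 596 shared regions, 44 and 96 then did. The level of the 115 regions in the siMena libraries was not measured.

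**Figure D4:**
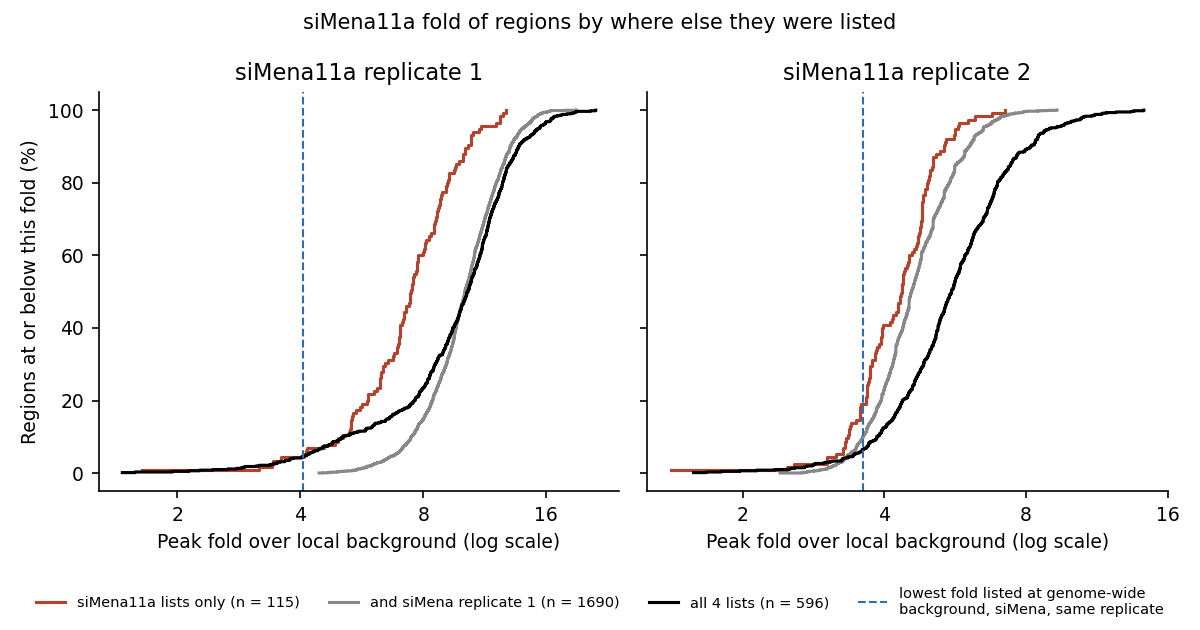
Cumulative share (%) of regions by siMena11a fold (log scale), in siMena11a replicate 1 and replicate 2, for regions listed in the siMena11a lists only (n = 115), with siMena replicate 1 as well (n = 1690), and in all 4 lists (n = 596). The dashed line is the lowest fold that siMena of the same number listed at genome-wide background, 4.06 and 3.61, and the median of the 115 regions is 7.46 and 4.36.

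The siMena11a-only region with the highest list percentile in its weaker library lay on chromosome 1 from 49344173 to 49344611. It had folds of 10.0 and 6.77 in siMena11a replicates 1 and 2, from pileups of 24 and 23 tags, and no siMena peak. Its siControl folds were 13.7 and 6.08 and its untreated folds 10.9 and 11.6, so every library but the siMena ones listed it. On chromosome 2 from 33294906 to 33295540 the siMena11a folds were 9.12 and 5.77, and all 4 reference libraries listed the region too, at folds of 6.25 to 11.9. Chromosome 7 from 40756866 to 40757216 had siMena11a folds of 12.3 and 5.41. Of the siControl libraries only replicate 1 listed it, at 9.23, and both untreated libraries did, at 9.13 and 5.17. Chromosome 15 from 92433654 to 92434201 had folds of 12.1 and 4.94, and again all 4 reference libraries listed it.

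Chromosome 6 from 161459207 to 161459898 had siMena11a folds of 8.10 and 6.22, chromosome 8 from 118400520 to 118400996 of 7.02 and 5.75, chromosome 3 from 112395693 to 112396017 of 7.01 and 5.64, and chromosome 15 from 102521117 to 102521440 of 8.01 and 4.50. These 4 regions were listed in all 4 reference libraries. Chromosome 7 from 19156255 to 19157327 had folds of 6.91 and 4.31 and the widest peak of the 10, at 1073 bp in siMena11a replicate 1. Chromosome 3 from 197900682 to 197900913, with 6.96 and 4.43, was listed in 1 siControl and 1 untreated library. In all 10 named regions the fold was above the lowest that siMena listed at genome-wide background, in both replicates. The 10 were named for their high list percentiles, which largely set this in advance. Of all 115 regions, 5 lay below that value in replicate 1 and 22 in replicate 2. None of the 10 was called when every list was shortened to its 1020 strongest peaks, as their percentiles of 58.0 to 91.4 in siMena11a replicate 1 left them out of that list.

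The 4 siMena-only regions had a median list percentile of 29.5 in siMena replicate 1 and 56.6 in replicate 2. Chromosome 7 from 157943985 to 157944214 had folds of 6.03 in siMena replicate 1 and 4.73 in replicate 2. Chromosome 20 from 59904304 to 59904554 had 5.16 and 4.25, chromosome 4 from 9270068 to 9270348 had 4.96 and 3.17, and chromosome 4 from 132672165 to 132672505 had 3.67 and 2.88. All 4 were listed in siControl replicate 2 and in neither untreated library, and the last also in siControl replicate 1. In siMena replicate 2 their local background was 8.30, 8.88, 7.20 and 13.2 tags, against a median of 4.78 over all its peaks and 2.88 genome-wide. In siMena replicate 1 it was 1.82, 2.10, 1.62 and 2.54 tags, against 1.54 and 0.725. All 4 thus lay above the median of both lists, 1.62 only slightly so. The part of that background in these listings was not tested.

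**Figure D5:**
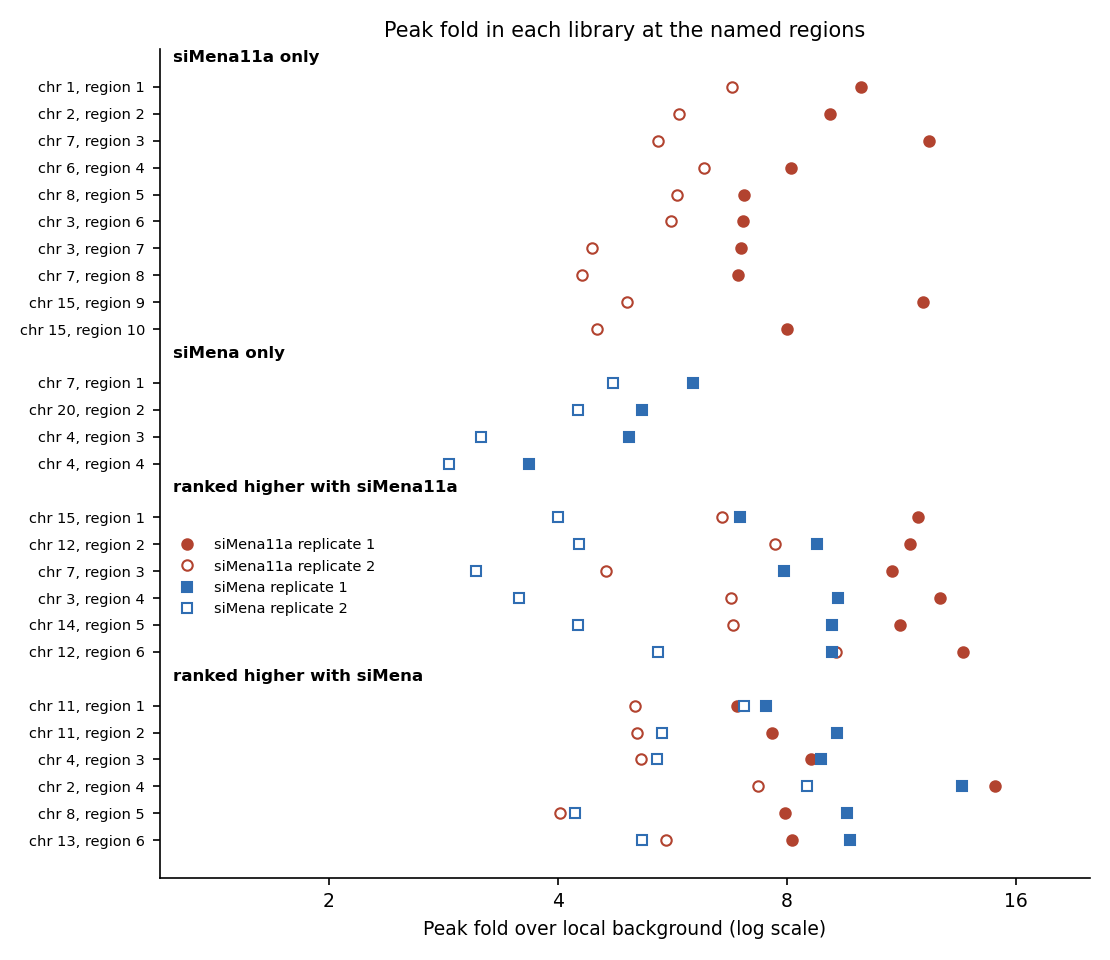
Peak fold over local background (log scale) in each of the 4 knockdown libraries at the named regions, numbered as they were ranked by rule within each class and labelled by chromosome, with no symbol where a library listed no peak. Replicate 1 (filled) lies above replicate 2 (open) of the same group at all 26 regions, and the siMena11a-only and siMena-only regions have symbols of 1 group.

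High local background also marked the regions that only replicate 2 listed. Both replicate 2 libraries and neither replicate 1 library listed 140 regions, more than the 115 of the siMena11a pattern. Of these, 13.6% lay on contigs, against 4.34% of all siMena11a and 12.8% of all siMena peaks of replicate 2. Their median local background was 6.08 tags with siMena11a and 6.57 tags with siMena, both in replicate 2, where the median over all peaks was 3.70 and 4.78 tags. The siControl replicate 1 and 2 libraries listed 20% and 77.1% of them, and untreated replicates 1 and 2 listed 5.00% and 18.6%. A further 46 regions were listed in the 4 knockdown libraries except siMena replicate 1, and 34.8% of those lay on contigs. Their median local background in replicate 2 was higher still, at 7.7 tags with siMena11a and 8.25 with siMena. The 36 regions that only siMena11a replicate 1 lacked among the 4 had 7.67 and 8.22 tags there, and 22.2% lay on contigs. The 53 regions listed in the 4 knockdown libraries except siMena11a replicate 2 had no contig among them. Both untreated libraries and siControl replicate 1 listed all 53, and siControl replicate 2 listed 38 (71.7%). They had a median list percentile of 14.3 in siMena replicate 2.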

How the data were processed

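Open chromatin of 8 H1650 libraries was deposited as 1 peak list per library. No source used here says whether the authors also pooled replicates. The submitters' processing notes name FastQC 0.11.5, Bowtie2 2.3.4.2, SAMtools 1.7, MACS2 2.2.5 and the build hg19. Filters on reads and the shift for the transposase are not given in the sources used here. The labels also record RNA as the extracted molecule, although the lists hold peaks. The fold is the authors' ratio of pileup to local background, and the −log10 p and −log10 q are the authors' deposited values from the peak caller, with lists ending at a q of 0.01. The deposited score is 10 times the −log10 q, rounded down, in 100% of the rows of the 4 knockdown lists and 99.98% or more of those of each other list. Pileup and local background were recovered from fold and −log10 p, within 0.001 for 100% of rows, and the lowest local background of a list was taken as the genome-wide one. Read totals are unknown.

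Intervals of the 4 lists were merged, and a region was listed in a library whose peak overlapped it by 1 bp or more. With 2 libraries against 2 there was no test per region. Differences were taken within each replicate number of the labels. Peak names in the siMena replicate 1 list carry a read-file ending otherwise seen only in replicate 2 lists, without the prefix those lists have, so the numbering rests on the labels alone. The 10 siMena11a-only regions with the highest list percentile in their weaker library, every siMena-only region, and the 6 shared regions per direction with the largest smaller rank difference were named by rule. The comparison, its measures and rules were chosen with earlier results of these data known. Gene lists, motifs, cell type markers and sequences were not analysed here, for want of an hg19 annotation. The code was tested on simulated data. Alternatives were shortened lists, a −log10 q of at least 5, peaks covering 50% of a region, merging within 200 bp, chromosomes 1 to 22 and X alone, ranks of fold, whole-list percentiles, a step of 20 points, the mean over regions, no added 1, the replicate block and leaving out each library. Single replicates and ranks of pileup over background were added after seeing the data. Scripts ran in Python 3.11.15 with SciPy 1.17.1, pandas 2.3.3, matplotlib 3.10.9 and numpy 2.4.6.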

Additional observations from a re-analysis of the deposited data

How the results depend on the processing

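The 115 siMena11a-only and 4 siMena-only regions became 50 and 27 with lists shortened to 1020 peaks. Replicate 1 alone gave 21754 and 541, and replicate 2 alone 1954 and 185. The siMena-only count was 2 at a −log10 q of at least 5. Leaving out 1 library drops a condition of the call, and gave 162 to 21697 and 40 to 497 regions. The 72 and 35 regions ranked higher with siMena11a and with siMena became 14 and 12 with peaks covering 50% of a region, which left 168 shared regions, and 21 and 13 with a step of 20 points. The siMena11a count was 42 at the stricter −log10 q, with 362 shared regions, and 45 with ranks of pileup over background. With whole-list percentiles the counts were 48 and 3. Leaving out 1 library used another rule, a difference of at least 10 points between the mean ranks of the groups. It also used the regions shared by the remaining libraries, which can number more than 596. The counts of 209 to 711 and 205 to 696 are therefore not comparable with 72 and 35. Of the 12 named shared regions, none was called with peaks covering 50% of a region, and 1 was with whole-list percentiles. At the stricter −log10 q, 1 of the 6 named for siMena11a and 5 of the 6 named for siMena were called. The fold difference of 0.26 ranged from −0.19 to 0.71 with 1 library left out, and was −0.18 without siMena11a replicate 1 and −0.19 without siMena replicate 2. In those settings the shared regions were found anew and the replicate numbers of the groups did not match. Within replicates 1 and 2 alone the difference was 0.23 and 0.29. Without the added 1 it was 0.17. For changes not shown to follow from an alternative's construction, the cause was not tested.

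With the replicate number as a block, the fold difference stayed 0.26 (exact permutation p = 0.5, the smallest the block allows), and the counts of 115 and 4 did not change, as they use no block. With no replicate block, so that both libraries of a group had to rank at least 10 points above both of the other, 23 regions ranked higher with siMena11a and 18 with siMena. Same-numbered libraries ranked the shared regions alike, with a rho of 0.78 and 0.68, but the labels give the numbers no meaning beyond the name, so the pairing was not established. The files give no read totals, so depth enters only through the recovered background, and the lists end at a q of 0.01, so a region without a peak has no value.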
